A study of Mus musculus with 15 samples.

Results

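The miR-28, miR-151 and miR-708 family holds 6 mature microRNAs (miRNAs) made from 3 mouse hairpins: mmu-miR-28a-5p and mmu-miR-28a-3p, mmu-miR-151-5p and mmu-miR-151-3p, and mmu-miR-708-5p and mmu-miR-708-3p (the prefix for mouse is left out below). The members were chosen by name, with their levels and arm ratios in these libraries already known, so every difference between the groups below is a description and carries no test of its own. They were found in 7 of the 1205 rows of the count table, because miR-28a-5p has a row of its own and a second row, miR-28a-5p/miR-28c, for reads that match it and its relative miR-28c alike. Of these 7 rows, 6 were among the 426 that passed the filter on low counts, and miR-708-5p was below that filter.

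RNA was taken from the platelet-free plasma of male wild-type C57BL/6J mice, 24 h after surgery. In 9 libraries the mice had undergone cecal ligation and puncture (CLP), in which gut bacteria leak into the abdomen and cause polymicrobial sepsis, and in 6 libraries a sham operation. Whether each library came from its own animal is not stated in the labels, and p-values therefore reflect only the spread between libraries. Plasma mixes RNA of many tissues, so fewer releasing cells and less RNA released per cell cannot be told apart.

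A miRNA hairpin is cut by Drosha and Dicer into a short duplex, whose strands are named 5p and 3p after their arm, and usually the strand that Argonaute keeps is the more abundant one. Bases 2 to 8 of that strand, the seed, direct it to its target mRNAs. All 3 hairpins of this family lie in introns of protein-coding genes, and miR-28 and miR-151 are known to derive from LINE repeat elements. miR-28 restrains B cells of the germinal centre and is lost in human B cell lymphomas. miR-151-5p promotes the movement of human liver cancer cells by lowering RhoGDIA. miR-708 is induced with its host gene under stress of the endoplasmic reticulum.

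The mature sequences are shown because they tell which members have the same seed. RefSeq entries on GRCm38.p6 were matched for 4 of the 6 members and for the relative miR-28b. The seed is in capitals.
miR-28a-5p: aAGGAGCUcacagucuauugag
miR-708-5p: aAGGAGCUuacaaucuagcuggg
miR-28b: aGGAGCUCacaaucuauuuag
miR-28a-3p: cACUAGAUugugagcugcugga
miR-708-3p: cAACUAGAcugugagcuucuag
miR-28a-5p and miR-708-5p have the same seed, and they are identical at 16 of 22 positions. miR-28b starts 1 base further in, so its seed is shifted, although 19 of 21 aligned positions equal those of miR-28a-5p. The 3p arms also differ by a shift of 1 base. Aligned with that shift, miR-28a-3p and miR-708-3p are identical at 17 of 21 positions, but their seeds are not the same. Stretches of complementary letters occur across hairpins too: the longest such run between miR-28a-5p and miR-708-3p has 13 bases, against 8 between miR-28a-5p and its own partner miR-28a-3p.

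By the GENCODE M21 annotation of GRCm38 (mm10), the miR-28a hairpin lies at chr16:24827855-24827940 on the plus strand, in an intron of Lpp, a gene for a focal adhesion protein. The miR-151 hairpin lies at chr15:73254815-73254882 on the minus strand, in an intron of Ptk2, which encodes focal adhesion kinase. The miR-708 hairpin lies at chr7:96249424-96249532 on the plus strand, in an intron of Tenm4, a teneurin gene also called Odz4. Each hairpin lies on the strand of the host gene named, and the miR-151 hairpin also lies in an intron of an antisense gene on the other strand, 1700085D07Rik. Host transcripts were not measured in these libraries.

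Library totals ran from 6181056 to 13576482 counts in CLP and from 5274676 to 10702028 in sham. Levels are CPM (counts scaled to a common library size) after scaling by the trimmed mean of M values (TMM). They are relative to the other miRNAs of a library, and these counts do not give amounts per volume of plasma. Adapter ligation favours some end sequences, so the order of levels between miRNAs need not be the order of their molecules. The summed level of 4 red cell rows ran from 81453 to 377463 CPM in CLP and from 157266 to 454442 CPM in sham (0 called higher, 1 called lower). That of 5 platelet rows ran from 24697 to 34229 CPM in CLP and from 44301 to 60811 CPM in sham (1 higher, 2 lower). miR-191-5p, called lower, averaged 5450 CPM in CLP and 37342 CPM in sham, so the lower platelet sum in CLP came from that row. miR-24-3p, called higher, averaged 19713 and 11004.5 CPM, and miR-199a-3p/miR-199b-3p, called lower, 494 and 750 CPM. miR-126a-3p (2354 and 3141 CPM) and miR-223-3p (371 and 290 CPM) did not pass. For 3 hepatocyte rows the sum ran from 18239 to 154944 CPM in CLP and from 23653 to 47278 CPM in sham (1 higher, 0 lower), and for 3 striated muscle rows from 4975 to 40576 CPM in CLP and from 408.9 to 6686 CPM in sham (2 higher, 0 lower). Of the hepatocyte rows miR-148a-3p was called higher, and miR-122-5p and miR-192-5p did not pass. Of the red cell rows miR-451a was called lower, and the most abundant, miR-486a-5p/miR-486b-5p, did not pass. No marker row was at 0 in every library, and the part of these cell types in the results below was not tested. CLP 5 had the highest red cell sum and the lowest muscle sum among the CLP libraries, and CLP 1 the highest hepatocyte sum.

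The family's hairpins differed in opposite directions. Relative to the other miRNAs, miR-28a and miR-708 were higher in CLP plasma, and miR-151, which made up nearly the whole family in sham plasma, was lower. At a Benjamini-Hochberg adjusted p under 0.05 in edgeR's quasi-likelihood fit over all 426 tested rows, 4 of the 6 tested family rows rose and 1 fell in CLP. Among the 4, miR-28a-5p counts in both of its rows and miR-28a-3p comes from the same hairpin, so they are not separate results. Of all tested rows, 25.4% were called higher, 21.8% lower and 47.2% either way. Every CLP library was above every sham library in 3 of the 6 rows (8.45% of all tested rows) and below every sham library in 1 (11.3% of all). The median log2 fold change of the 6 rows was 1.70, beside 0.11 for all 426. That median lies between both rows of miR-28a-5p (1.75 and 1.66). It is not a shift of the whole family, since miR-151-3p (-1.05) and miR-151-5p (-0.64) were negative.

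**Figure D1:**
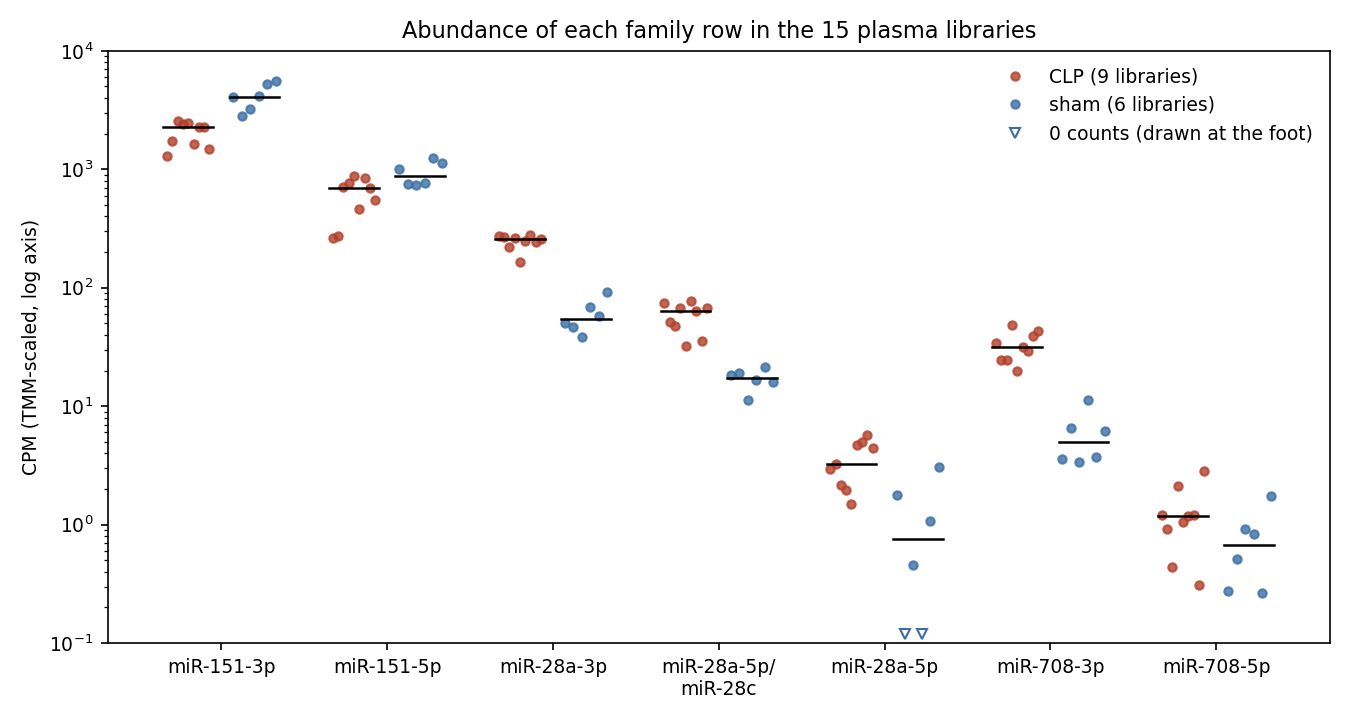
Level of each of the 7 family rows in CPM on a log axis, 1 point per library, with a line at the median of each group (9 CLP, 6 sham libraries). CLP points lie above all sham points for miR-28a-3p, miR-28a-5p/miR-28c and miR-708-3p and below them for miR-151-3p, and 2 sham libraries with 0 counts of miR-28a-5p are drawn at the foot.

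miR-28a-3p, the more abundant arm of the miR-28a hairpin, was at 272.9, 267.7, 219.4, 264.7, 164.9, 247.5, 278.8, 245.5 and 255.7 CPM in CLP 1 to 9, against 50.1, 46.5, 38.5, 68.9, 57.8 and 92.4 CPM in sham 1 to 6. The groups did not overlap, and CLP 5 was the lowest CLP library. It averaged 246.3 ± 35.4 CPM in CLP (SD, n = 9) and 59.0 ± 19.3 CPM in sham (n = 6). The log2 fold change was 2.06 ± 0.21 (SE), a 4.17-fold rise that ranked 22 among the 426 tested rows from the highest. Within CLP it was also the steadiest of the tested family rows, with an SD of 0.24 on the log2 CPM scale. The median tested row had 0.59, a median that many scarcer rows enter. In sham its SD was 0.45, above those of both miR-151 rows and of miR-28a-5p/miR-28c.

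Most reads of the 5p arm of miR-28a fell in the row shared with miR-28c. That row was at 74.6, 51.4, 47.9, 66.9, 32.0, 77.1, 63.6, 35.5 and 67.7 CPM in CLP 1 to 9, against 18.2, 18.9, 11.2, 16.6, 21.4 and 16.01 CPM in sham 1 to 6. Again the groups did not overlap, and CLP 5 and CLP 8 were the lowest CLP libraries. The mean was 57.4 ± 16.5 CPM in CLP (SD, n = 9) and 17.1 ± 3.42 CPM in sham (n = 6), and the log2 fold change was 1.75 ± 0.23 (SE), which passed. Its value contained a fraction of a read in 9 of 15 libraries, which is what dividing a read between several rows gives.

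Reads assigned to miR-28a-5p alone were scarce. This row held 15 to 60 counts in the CLP libraries and 0 to 32 in the sham libraries, with a median of 3.28 CPM in CLP and 0.763 CPM in sham. In sham 2 and sham 4 it had 0 counts, which allows up to 0.385 and 0.502 CPM, counting error only. Only 5 CLP libraries exceeded sham 6, the highest sham library at 3.09 CPM. The log2 fold change of 1.66 ± 0.65 (SE) passed, but the call was lost on leaving out any 1 of 8 libraries: CLP 6, 7, 8 or 9 or sham 2, 3, 4 or 5. Without sham 6 the log2 fold change was 2.30.

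miR-28c itself, from an intron of Samd12, was below the filter. Its own row averaged 1.43 ± 0.591 CPM in CLP (SD, n = 9) and 0.402 ± 0.299 CPM in sham (n = 6). miR-28b had 1 count in CLP 9 and 1 in sham 5, and 0 in the other 13 libraries. How much of the shared row comes from miR-28a and how much from miR-28c cannot be told apart from the counts.

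miR-708-3p had the largest change in the family. It was at 34.2, 24.6, 24.3, 48.7, 19.8, 31.9, 29.2, 39.1 and 42.9 CPM in CLP 1 to 9, against 3.60, 6.54, 3.36, 11.2, 3.74 and 6.17 CPM in sham 1 to 6. The lowest CLP library, CLP 5, was still above the highest sham library, sham 4. The mean was 32.7 ± 9.46 CPM in CLP (SD, n = 9) and 5.77 ± 2.999 CPM in sham (n = 6). The log2 fold change was 2.50 ± 0.30 (SE), a 5.67-fold rise at rank 13 of 426, and lay between 2.30 and 2.72 on leaving out 1 library.

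miR-708-5p, which shares its seed with miR-28a-5p, had 7, 5, 5, 16, 12, 15, 12, 2 and 18 counts in CLP 1 to 9 and 2, 4, 6, 5, 2 and 18 counts in sham 1 to 6. The groups overlapped over nearly their whole range. Its mean level was 1.25 ± 0.786 CPM in CLP (SD, n = 9) and 0.758 ± 0.552 CPM in sham (n = 6). In a fit with no filter on low counts its log2 fold change was 0.70 ± 0.69 (SE), which did not pass.

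miR-151-3p was the most abundant member in every library. It was at 1288, 1715, 2533, 2419, 2467, 1644, 2286, 2272 and 1488 CPM in CLP 1 to 9, against 4057, 2838, 3232, 4132, 5216 and 5558 CPM in sham 1 to 6. All 9 CLP libraries were below every sham library, with CLP 1 the lowest. The mean was 2013 ± 475 CPM in CLP (SD, n = 9) and 4172 ± 1066 CPM in sham (n = 6), and it fell by 1.05 on the log2 scale with an SE of 0.20.

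miR-151-5p was at 262.3, 274.4, 704.7, 770.4, 868.8, 463.0, 836.7, 694.2 and 552.1 CPM in CLP 1 to 9, against 1001, 754.5, 734.8, 763.7, 1247 and 1140 CPM in sham 1 to 6. CLP 1 and CLP 2 stood lowest, 6 CLP libraries were below every sham library, and CLP 4, CLP 5 and CLP 7 were within the sham range. The mean was 603.0 ± 229 CPM in CLP (SD, n = 9) and 940.1 ± 222 CPM in sham (n = 6), a log2 fold change of -0.64 ± 0.26 (SE) that did not pass. It did pass under each of 9 other settings (-0.93 to -0.62), and on leaving out CLP 3, 4, 5, 6, 7 or 8 or sham 2, 3 or 4 (-0.78 to -0.66). Its value contained a fraction of a read in 10 of 15 libraries.

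**Figure D2:**
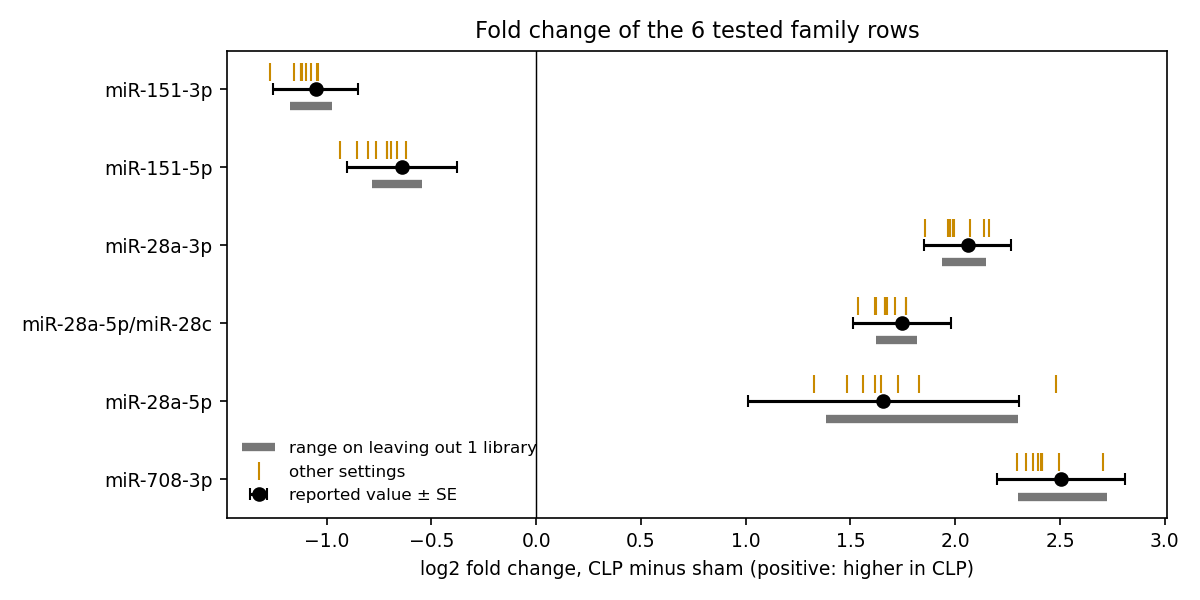
Log2 fold change of CLP over sham for the 6 tested family rows. Black points are the reported values with their SE, grey bars the range on leaving out 1 library in turn and yellow ticks the other settings. The miR-151 rows stay below 0 and the miR-28a and miR-708 rows above 0 under all of them, and miR-28a-5p has the widest range, from 1.32 to 2.48.

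Because of these opposite differences the make-up of the family was not the same in the groups. The family's summed level was 2957 ± 655 CPM in CLP (SD, n = 9) and 5196 ± 1282 CPM in sham (n = 6). miR-151 held between 80.1% and 93.8% of it in CLP libraries and between 98.02% and 98.7% in sham libraries. miR-28a held between 5.58% and 18.1% in CLP and between 1.23% and 1.79% in sham, and miR-708 between 0.587% and 1.89% in CLP and between 0.0612% and 0.241% in sham. Here and in the ratios of hairpins below, miR-28a includes the row shared with miR-28c. None of these 3 shares overlapped between the groups, but they add up to the whole family in each library and so are not separate results. By level, every CLP library was beyond the sham range in 19.7% of all tested rows. Shares within other families were not computed.

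Ratios of hairpins within a library do not depend on how the library is scaled. The counts of both miR-151 arms were 8.99 times those of miR-28a in the median CLP library (range 4.42 to 16.8), against 65.8 times in the median sham library (54.8 to 80.5). They were 75.2 times those of miR-708 in the median CLP library (43.8 to 159), against 876 times in the median sham library (404 to 1588). miR-28a and miR-708 kept closer to each other: miR-28a was 9.89 times miR-708 in the median CLP library (6.56 to 12.6) and 12.7 times in the median sham library (7.06 to 19.7), ranges that overlapped. Ratios between hairpins outside the family were not computed.

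The order of levels was the same in most libraries. miR-151-3p came first, then miR-151-5p, miR-28a-3p, miR-28a-5p/miR-28c, miR-708-3p, miR-28a-5p and miR-708-5p. In sham the ranges of neighbouring rows among the first 6 of these did not overlap. In CLP miR-28a-3p reached miR-151-5p, which it exceeded in 1 of 9 libraries, CLP 1, and miR-708-3p exceeded miR-28a-5p/miR-28c in 1, CLP 8. The last pair, miR-28a-5p and miR-708-5p, were ordered so in 8 of 9 CLP and 3 of 6 sham libraries.

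Each hairpin was read mainly from its 3p arm, in both groups. The 5p arm of miR-151 held 22.4% ± 4.52 of the hairpin's counts in CLP (SD, n = 9) and 18.5% ± 1.96 in sham (n = 6). The log2 ratio of 5p over 3p (pseudocount 0.5) was -1.82 ± 0.41 in CLP and -2.14 ± 0.19 in sham, a difference of 0.32. In 7 CLP libraries the ratio was above every sham library, while in CLP 1 and CLP 2 it was -2.30 and -2.64, inside and below the sham range. Without CLP 1 and CLP 2, left out after their values were seen, the difference was 0.51.

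For miR-28a, with the reads shared with miR-28c counted as 5p, the 5p arm held 19.6% ± 3.23 in CLP (SD, n = 9) and 24.3% ± 5.07 in sham (n = 6). The log2 ratio was -2.05 ± 0.30 in CLP and -1.67 ± 0.41 in sham, a difference of -0.39 with overlapping groups, since 3 of 9 CLP libraries were below every sham library. From the row shared with miR-28c alone, or with the miR-28c row added, the difference was also -0.39. Counting only the reads assigned to miR-28a-5p alone turned the difference to 0.57. In that row sham 2 and sham 4 had 0 counts, so their ratios rest on the pseudocount. No direction is given for this ratio, since the groups overlapped and the sign depends on how the 5p reads are counted.

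The miR-708 hairpin had the most unequal arms and the largest difference in their ratio. The log2 ratio of 5p over 3p was -4.83 ± 0.84 in CLP (SD, n = 9) and -2.94 ± 0.89 in sham (n = 6), a difference of -1.89 (-1.16 between the group medians) in which all 9 CLP libraries were below every sham library. By level, every CLP library was beyond the sham range in 19.7% of all tested rows, miR-708-3p among them, so the ratio is not separate from its rise. Arm ratios of hairpins outside the family were not computed. The 5p arm held 0.791% to 6.21% of the hairpin's counts in CLP and 6.67% to 21.95% in sham. These shares rest on few reads. In CLP 9, the highest CLP library, 18 of 290 reads were 5p (6.21%, exact 95% binomial interval 3.72% to 9.63%), and in sham 5, the lowest sham library, 2 of 30 (6.67%, 0.818% to 22.1%). The intervals cover counting error only. The 2 sham libraries with the highest share, sham 6 and sham 3, were at 21.95% (13.6% to 32.5%) and 21.4% (8.30% to 41.0%), and the other sham libraries between 6.67% and 7.27%.

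**Figure D3:**
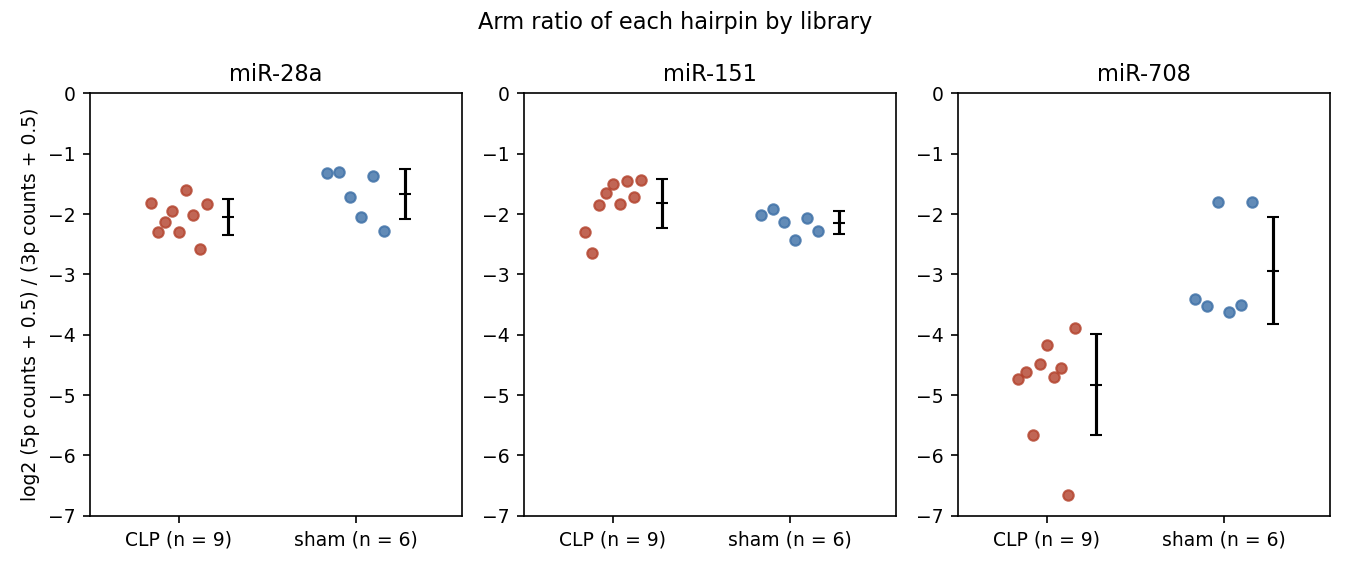
Log2 ratio of 5p over 3p counts (pseudocount 0.5) of each hairpin, 1 point per library, with the mean and SD of each group (9 CLP, 6 sham libraries) beside the points. All miR-708 ratios of CLP lie below those of sham, from -6.65 to -3.88 against -3.62 to -1.79, while the miR-28a and miR-151 ratios overlap. Ratios of other hairpins were not computed.

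Whether arms of a hairpin vary together was asked within each group, a measure that the difference between the groups does not enter, although the levels themselves were known when the members were chosen. 8 relations were computed, on log2 CPM, with both 5p rows of miR-28a summed, with exact two-sided permutation p-values adjusted over the 8. Points share their library's scaling. The arms of miR-151 varied together among the CLP libraries. Pearson's r was 0.84 (exact permutation p = 0.00518, adjusted 0.0414, n = 9) and Spearman's rho 0.82 (exact permutation p = 0.0108, adjusted 0.0862). Without CLP 1 and CLP 2, the libraries farthest from the median of the 5p arm, r was 0.85 (exact permutation p = 0.0347, n = 7), but it did not pass once adjusted over the 8 relations (0.130). The call of r was also lost without any 1 library other than CLP 2, with r between 0.73 and 0.91. Such values were not particular to arms of a hairpin. Over both groups, each library less its group mean, r was 0.92 for miR-351-5p with miR-151-3p and 0.90 for miR-511-5p with miR-151-5p. These were picked as the closest of 244 miRNAs, and r over other pairs of miRNAs was not tested.

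In sham the miR-151 arms gave r = 0.86 (exact permutation p = 0.0486, adjusted 0.130, n = 6) and rho = 0.83 (exact permutation p = 0.0583), which did not pass. Without sham 5 and sham 6 r was 0.56. For miR-28a in CLP r was 0.77 (exact permutation p = 0.0153, adjusted 0.0611, n = 9) and rho 0.53 (exact permutation p = 0.148), and without CLP 5 and CLP 8, the libraries farthest from the median, r was 0.47. It was 0.48 without CLP 5 alone and 0.86 without CLP 8 alone, so that relation rests on CLP 5. In sham the miR-28a arms gave r = 0.46 (exact permutation p = 0.364, n = 6), which turned to -0.31 without sham 3 and sham 5. The relations that involve the sparse miR-708-5p did not pass over all libraries of a group. Their r lay between 0.42 and 0.58, other than the summed 5p rows of miR-28a with miR-708-5p in sham, at -0.46 (exact permutation p = 0.376, n = 6). That last value depended on 1 library, since without sham 6 it was -0.87 and passed. The other sham libraries held only 2, 4, 6, 5 and 2 counts of miR-708-5p, so this call rests on few reads.

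**Figure D4:**
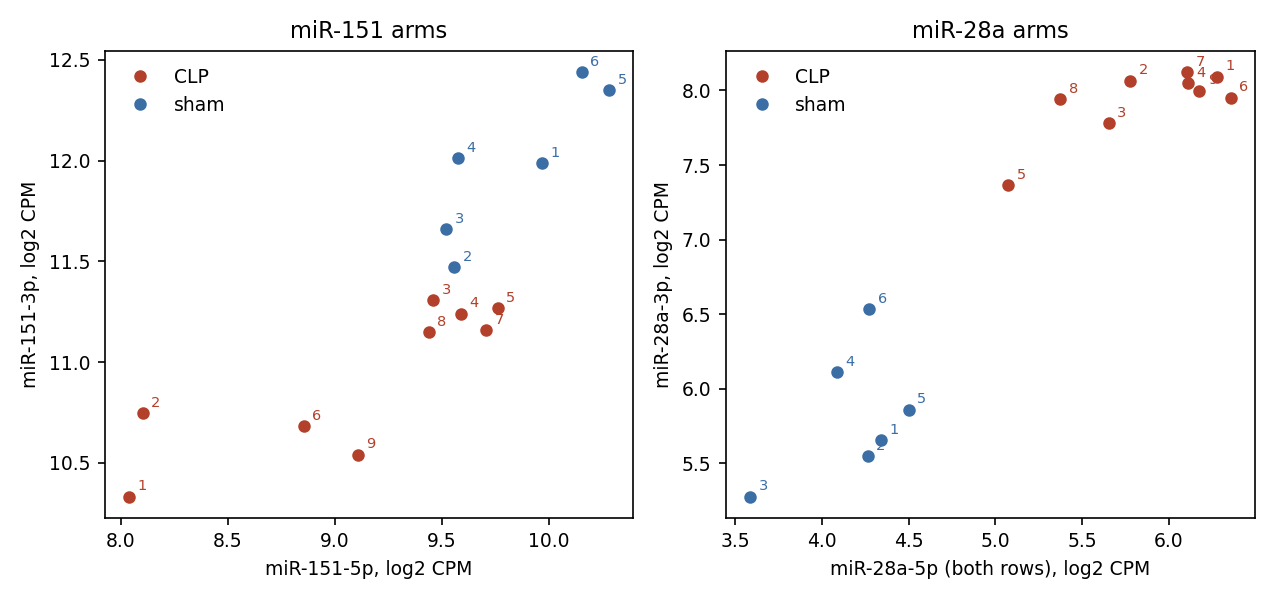
Level of the 3p arm against the 5p arm in log2 CPM, for miR-151 on the left and miR-28a (both 5p rows summed) on the right, 1 point per library with its replicate number. CLP 1 is the lowest CLP library of both miR-151 arms. CLP 2 lies next to it in the 5p arm, but in the 3p arm CLP 6 and CLP 9 are lower than CLP 2. CLP 5 is the lowest CLP library of both miR-28a arms.

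Among the 244 other tested miRNAs that averaged 10 CPM or more, the closest in pattern were found by Pearson's r of log2 CPM over the 15 libraries, which the difference between the groups can set by itself, so r within groups (each library less its group mean) is given beside it. For miR-151-3p they were miR-351-5p (r = 0.97, within groups 0.92) and miR-744-5p (0.96, within groups 0.92). miR-351-5p was at 189.9 ± 49.7 CPM in CLP (SD, n = 9) and 639.1 ± 140 CPM in sham (n = 6). For miR-151-5p they were miR-511-5p (r = 0.92, within groups 0.90) and miR-30d-5p (0.90, within groups 0.85). miR-28a-3p and miR-708-3p had the same closest pair, miR-10a-3p (r = 0.97 with miR-28a-3p and 0.94 with miR-708-3p, within groups 0.77 and 0.56) and miR-130a-3p (0.94 with each, within groups 0.37 and 0.47). miR-10a-3p, the lesser arm of the abundant miR-10a, was at 42.1 ± 9.79 CPM in CLP (SD, n = 9) and 11.1 ± 3.62 CPM in sham (n = 6). The shared row miR-28a-5p/miR-28c was closest to miR-223-5p (r = 0.95, within groups 0.64) and miR-1839-5p (0.94, within groups 0.61). The scarce miR-28a-5p row was closest to miR-134-5p (r = 0.81, within groups 0.59) and miR-10a-5p (0.77, within groups 0.46).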

How the data were processed

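Total RNA from platelet-free plasma was made into small RNA libraries by adapter ligation (Norgen Biotek kit) and gel excision, per the labels' protocols. The deposited table holds expected counts of reads per mature miRNA from the exceRpt pipeline, named in the table's title, 1 column per library and not scaled for depth. The submitters' processing notes give mm10 as the build; the aligner and its settings are not given in the sources used here. Counts were rounded and tested with edgeR 4.0.16 in R 4.3.3 (filterByExpr, TMM, robust quasi-likelihood F test, two-sided, Benjamini-Hochberg threshold 0.05 over 426 rows). SE is the size of the log2 fold change over the square root of F. Log2 CPM used a prior count of 2. The fit was also run on simulated counts in which every row had the same spread between libraries, unlike these data, so no result above rests on that run. Correlations used scipy 1.17.1. No 2 libraries of a group agreed within sampling noise (lowest chi-square per degree of freedom 373 in CLP and 235 in sham). DESeq2 1.42.0 and limma 3.58.1 voom were alternatives. The members, the marker lists and the rule for miRNAs of similar pattern (the 2 with the highest r per tested member) were chosen with earlier results of these data known. Added after seeing the data were other ways to count the 5p arm of miR-28a and leaving out CLP 1 and CLP 2 together.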

Additional observations from a re-analysis of the deposited data

Results flagged for a closer look

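Each of 20 sets of values (the 7 family rows in log2 CPM and the 3 arm ratios, in each group) was checked for a library far from the others, and chance flags about 1 in 20. The single flag was the lowest CLP library of miR-28a-3p, CLP 5, at 7.37 log2 CPM: its gap to the next library was 0.544 of the range of the 9 CLP libraries, above the limit of 0.493. Without CLP 5 the log2 fold change of miR-28a-3p was 2.05. CLP 5 also held the most red cell miRNA of the CLP libraries, at 377463 CPM, and the part of that in its low miR-28a-3p was not tested.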

How the results depend on the processing

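The number of miRNAs called was 201, and between 184 and 213 on leaving out 1 library. It was 307 with no filter, where 1182 rows were tested. Scaling by library size alone shifted the median log2 fold change of all rows by -0.23 and split the calls into 90 higher and 126 lower, against 108 and 93. miR-151-3p (-1.17 to -0.97 on leaving out 1 library), miR-28a-3p (1.93 to 2.15), miR-28a-5p/miR-28c (1.62 to 1.82) and miR-708-3p (2.30 to 2.72) kept direction and call under all 9 other settings and without any 1 library.

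miR-151-5p (-0.64; -0.78 to -0.54 on leaving out 1 library) passed with DESeq2 (-0.71), limma voom (-0.69), DESeq2 size factors (-0.71), library size scaling (-0.85), no filter (-0.62), the stricter filter (-0.76), the replicate number as a block (-0.93), replicates 1 to 6 alone (-0.80) and the trend with GC content removed (-0.66). The call of the miR-28a-5p row (1.66; 1.38 to 2.30 on leaving out 1 library) was lost with library size scaling (1.48), the replicate block (1.83), replicates 1 to 6 alone (1.32) and the GC trend removed (1.56); the stricter filter left this row out. The causes were not tested. Sequences for the GC trend were matched for 87.6% of the tested rows.

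On leaving out 1 library the arm ratio differences lay between -0.51 and -0.31 for miR-28a, 0.27 and 0.43 for miR-151, and -2.02 and -1.66 for miR-708. Between group medians that of miR-708 was -1.16, and between same-numbered libraries 1 to 6 (the replicate block) that of miR-151 was 0.18. That of miR-28a reversed to 0.57 with its own 5p row alone, where sham 2 and sham 4 had 0 counts. On leaving out 1 library r of the miR-28a arms lay between 0.48 and 0.86 in CLP and between -0.28 and 0.54 in sham, that of the miR-151 arms between 0.73 and 0.91 in CLP and between 0.83 and 0.95 in sham, that of the miR-708 arms between 0.27 and 0.78 in CLP and between 0.28 and 0.61 in sham, and that of miR-28a-5p with miR-708-5p between 0.45 and 0.79 in CLP and between -0.87 and -0.26 in sham. The miR-28a arms passed in CLP with library size scaling (0.87) and without CLP 6 (0.83). On few reads of miR-708-5p, miR-28a-5p with miR-708-5p passed in sham without sham 6 (-0.87). Here miR-28a-5p sums its 5p rows. Without the 2 farthest libraries r was -0.31 for the miR-28a arms in sham and no longer passed for the miR-151 arms in CLP (0.85).

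Same-numbered CLP and sham libraries did not deviate together (6 pairs, r from -0.15 to -0.03). With their own number, 0 of 6 CLP libraries correlated best, but 6 pairs cannot exclude pairing. The block gave 152 calls, against 179 in the same 12 libraries without it. miR-708-5p was below the filter and has a fold change only with no filter (0.70), and its few reads limit the miR-708 arm ratio.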
